A study of Mus musculus with 12 samples.

Results

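Hes5, Id1, Ednrb, Jag1 and Ptprz1 are 5 signalling genes that neural progenitors are known to use. They were taken by name from the deposited expression tables of 2 cell types, and together those tables list 2477 genes. Hes5, Id1 and Ednrb are listed in neural progenitor cells (NPC) alone, Ptprz1 in embryonic fibroblasts (MEF) alone, and Jag1 in both. Both cell types came from E14.5 mouse embryos of mixed C57BL/6 X 129S1/SvlmJ background and carried the genotype Prmt5 F/FER, a conditional Prmt5 allele that 4-hydroxytamoxifen (4-OHT) inactivates. NPC were cortical neurospheres at day 4 in EGF and FGF, and MEF were passage 1 fibroblasts grown to confluence. Each was given 50 nM 4-OHT or ethanol for 24 h, with 3 libraries in each of the 4 groups. Every one of the 12 libraries has this allele, and an effect of 4-OHT itself and one of Prmt5 loss cannot be told apart here. The labels do not say whether the replicates were separate cultures or animals, nor which promoter drives the inducible recombinase.

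Notch signalling passes between neighbouring cells. A ligand such as Jag1 on 1 cell binds a Notch receptor on the next, and the receptor is cut. Its inner part then joins the DNA-binding protein RBPJ to switch on target genes such as Hes5 and Nrarp. HES proteins repress proneural genes and keep cortical progenitors from becoming neurons. Id1 is an inhibitor of differentiation: it binds basic helix-loop-helix (bHLH) factors, cannot bind DNA itself, and is a common target of bone morphogenetic protein (BMP) signalling. Ednrb is a G protein-coupled receptor for endothelins, found on radial glia, astrocytes and neural crest cells. Ptprz1 is a receptor-type tyrosine phosphatase of radial glia and oligodendrocyte precursors whose ligands include pleiotrophin.

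The stretches upstream of 3 genes are shown because Hes5 and Nrarp are the listed Notch targets, both lower in NPC, while Jag1 is the ligand listed in both cell types. They come from the RefSeq promoter table of build GRCm38.p6, which holds 4 of the 5 members and another build than the expression data, and no base printed lies in a GENCODE M21 exon of the gene. Capitals mark matches on either strand to TGGGAA, the core that RBPJ is known to bind, or to CACGNG, an E-box form that HES proteins are known to bind. These motifs do not overlap each other in these stretches. The Hes5 stretch is chr4:154960673-154960922 (plus strand), that of Nrarp chr2:25180508-25180757 (plus strand) and that of Jag1 chr2:137116645-137116770 (minus strand). For Jag1 only the 126 bases of its 250-base window farthest from the start are printed. Its matches begin 249 and 171 bases upstream of the start.
Hes5: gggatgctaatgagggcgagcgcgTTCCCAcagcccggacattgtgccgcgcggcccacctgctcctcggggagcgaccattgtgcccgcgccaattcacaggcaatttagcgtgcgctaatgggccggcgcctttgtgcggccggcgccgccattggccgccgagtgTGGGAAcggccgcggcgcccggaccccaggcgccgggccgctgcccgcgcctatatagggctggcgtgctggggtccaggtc
Nrarp: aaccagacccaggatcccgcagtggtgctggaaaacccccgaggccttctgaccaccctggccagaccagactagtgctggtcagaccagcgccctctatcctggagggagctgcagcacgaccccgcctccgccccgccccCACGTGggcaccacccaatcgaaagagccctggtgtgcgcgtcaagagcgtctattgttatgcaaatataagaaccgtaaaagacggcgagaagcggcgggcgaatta
Jag1: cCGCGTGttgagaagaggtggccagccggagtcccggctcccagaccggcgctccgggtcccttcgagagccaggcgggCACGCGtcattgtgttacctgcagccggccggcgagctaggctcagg

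TGGGAA occurs at 2 positions in the 250 bases before the Hes5 start, beginning 226 and 82 bases upstream and on opposite strands. Of 32851 promoter windows of 250 bases, 21.6% hold at least 1 match and 2.77% at least 2. No match was found in the windows of Nrarp, Jag1, Ednrb or Ptprz1. CACGNG occurs at 2 positions for Jag1, 1 for Nrarp, 1 for Ptprz1 and 0 for Hes5 and Ednrb, beside 23.5% of windows with at least 1 and 5.40% with at least 2. A match describes these letters and is no measure of binding.

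The expression tables give 1 RPKM value (reads scaled to transcript length and to mapped reads) for each arm, so no spread between libraries can be given. They list genes with a Cuffdiff p-value under 0.05 and a change of at least 1.5-fold, and the p-values are not adjusted. A gene that is not listed was untested, had a higher p or changed less, and its level is unknown. The NPC list covers 9.53% of 21900 RefSeq protein-coding symbols and the MEF list 0.461%. Intervals below were derived here from the deposited p under a normal distribution. For the Benjamini-Hochberg adjusted p only an upper bound could be had, with 55341 genes counted as tested. Prmt5 went from 33.4 to 4.92 RPKM in NPC and from 21.0 to 3.76 RPKM in MEF by the authors' deposited table. The depth of the libraries is unknown here.

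**Figure D1:**
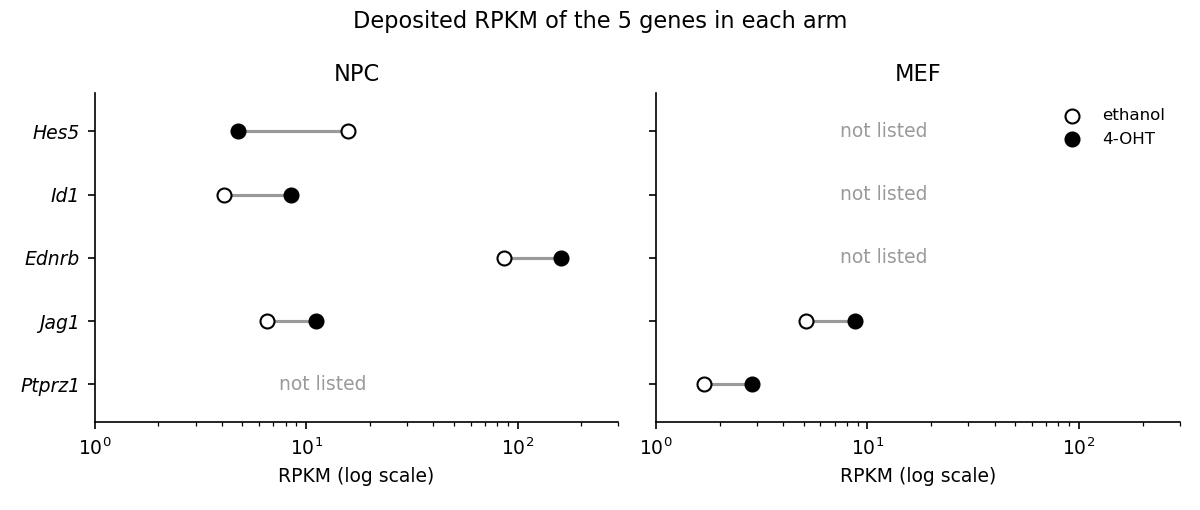
RPKM of the 5 genes in each arm, on a log axis, for NPC (left) and MEF (right). Open circles are ethanol and filled circles 4-OHT, 1 deposited value for 3 libraries. Hes5 alone moves to the left, from 15.8 to 4.77 RPKM, and Ednrb stands far above the others in NPC.

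In NPC, 1 of the 4 listed members fell and 3 rose. Hes5, a transcriptional effector of Notch, fell, while the ligand Jag1, the bHLH antagonist Id1 and the receptor Ednrb rose by 1.71- to 2.06-fold. Of all 2416 listed rows in NPC, 43.4% were lower and 56.6% higher. All 4 had an adjusted p bound under 0.05, as did 73.8% of listed NPC rows, and all 4 had a deposited p under 0.01, as did 85.6%. In MEF both listed members, Jag1 and Ptprz1, were higher, where 50.5% of 111 listed genes were higher and 49.5% lower.

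Hes5 had 15.8 RPKM with ethanol and 4.77 RPKM with 4-OHT in NPC by the authors' deposited table. The treated arm kept 30.2% of the ethanol level, a 3.31-fold fall. Its log2 fold change was -1.73 (95% interval -2.14 to -1.31, an upper limit of its width, since the deposited p of 0 was set to 2.22e-16). The bound of its adjusted p was 1.15e-13 (Cuffdiff p, Benjamini-Hochberg bound). By size of fall Hes5 ranked 20 of 1049 lower rows, and 3 of 707 among those that reached 5 RPKM in either arm. The listed genes nearest to it in both RPKM values, by Euclidean distance over the 2 log2 values among 2405 rows, were Cdkn3, Recql and Rnaseh2c. Cdkn3, a cyclin-dependent kinase phosphatase, had 15.0 and 5.59 RPKM with ethanol and 4-OHT by the authors' deposited table. Hes5 is not listed in MEF, and no other HES or HEY gene of the list is in either table.

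Nrarp, a Notch target whose protein dampens Notch signalling, was the other listed target in NPC. It fell from 11.6 to 5.01 RPKM by the authors' deposited table, a log2 fold change of -1.21 (adjusted p bound 2.77e-11, Cuffdiff). Both listed genes of the 14 Notch targets and co-repressors were therefore lower, with a median log2 fold change of -1.47 beside 0.66 over all listed NPC rows. The latter median leaves out genes that changed less than 1.5-fold. Hes1, Hey1, Hey2 and Heyl are among the 12 that are not listed.

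Jag1, the Notch ligand, rose in NPC from 6.53 to 11.2 RPKM by the authors' deposited table. That is a 1.71-fold rise, with a log2 fold change of 0.77 (95% interval 0.50 to 1.05) and an adjusted p bound of 3.80e-06 (Cuffdiff). In MEF Jag1 had 5.15 RPKM with ethanol and 8.78 RPKM with 4-OHT by the authors' deposited table, 1.70-fold more and a log2 fold change of 0.77 (95% interval 0.10 to 1.43). The MEF p-value was 0.0234 before adjustment (Cuffdiff, 3 libraries an arm), and its bound did not pass 0.05. The tables were normalized separately, so the levels of the 2 cell types are set side by side only.

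The change of Jag1 differed between the cell types by 0.0049 on the log2 scale, NPC minus MEF, with a 95% interval of -0.71 to 0.72. A normal test of that difference, two-sided and with standard errors from the deposited Cuffdiff p-values, gave an adjusted p of 0.989 over the 49 genes in both tables, of which 9 passed 0.05. The interval is wide and does not show that the changes were equal. Only genes listed in both tables entered this test. The smallest listed change, in absolute log2 value, was 0.585 in NPC and 0.650 in MEF. Jag1, at 0.77 in both, lay near these limits, so the listing rule itself favours a small difference for it. The small difference therefore cannot decide whether the changes were alike. With each table centred on the median change of its listed genes, 0.66 in NPC and -0.65 in MEF, the difference was -1.31 with an adjusted p of 0.000924 (same normal test, Cuffdiff p-values), and 40 of the 49 genes passed 0.05. Over the 4 RPKM values the nearest of the other 48 genes was Limch1, with 8.32 and 13.2 RPKM in NPC and 6.28 and 10.1 RPKM in MEF by the authors' deposited table. Ano3 came next. Within NPC alone the nearest genes to Jag1 were Clybl, Mybl1 and Ramp1, and within MEF Parm1, Oasl2 and Ano3.

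Of 12 Notch ligands, related ligands and receptors, 4 were listed in NPC, 3 higher and 1 lower. The receptor gene Notch3 rose from 6.52 to 10.5 RPKM by the authors' deposited table (log2 fold change 0.69, adjusted p bound 3.06e-05, Cuffdiff). Dll3, a divergent ligand known to act inside the cell that makes it, fell from 4.35 to 2.83 RPKM by the authors' deposited table (log2 fold change -0.62, adjusted p bound 0.0495, Cuffdiff). Jag2 was listed at 0.117 and 0.197 RPKM with ethanol and 4-OHT by the authors' deposited table, and its bound did not pass. Dll1, Notch1 and Notch2 are not listed, and in MEF Jag1 was the single listed gene of the 12.

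Among 33 genes of receptor processing, glycosylation and nuclear function, Mfng alone was listed in NPC. It encodes Manic fringe, a glycosyltransferase that modifies Notch receptors and changes their response to ligands. Mfng fell from 2.79 to 1.35 RPKM by the authors' deposited table, a log2 fold change of -1.05 (adjusted p bound 0.000645, Cuffdiff). No gene of these 33 was listed in MEF. Over all 59 genes of the 3 Notch lists, 3 were higher and 4 lower in NPC, and without Hes5 and Jag1 the counts were 2 and 3.

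**Figure D2:**
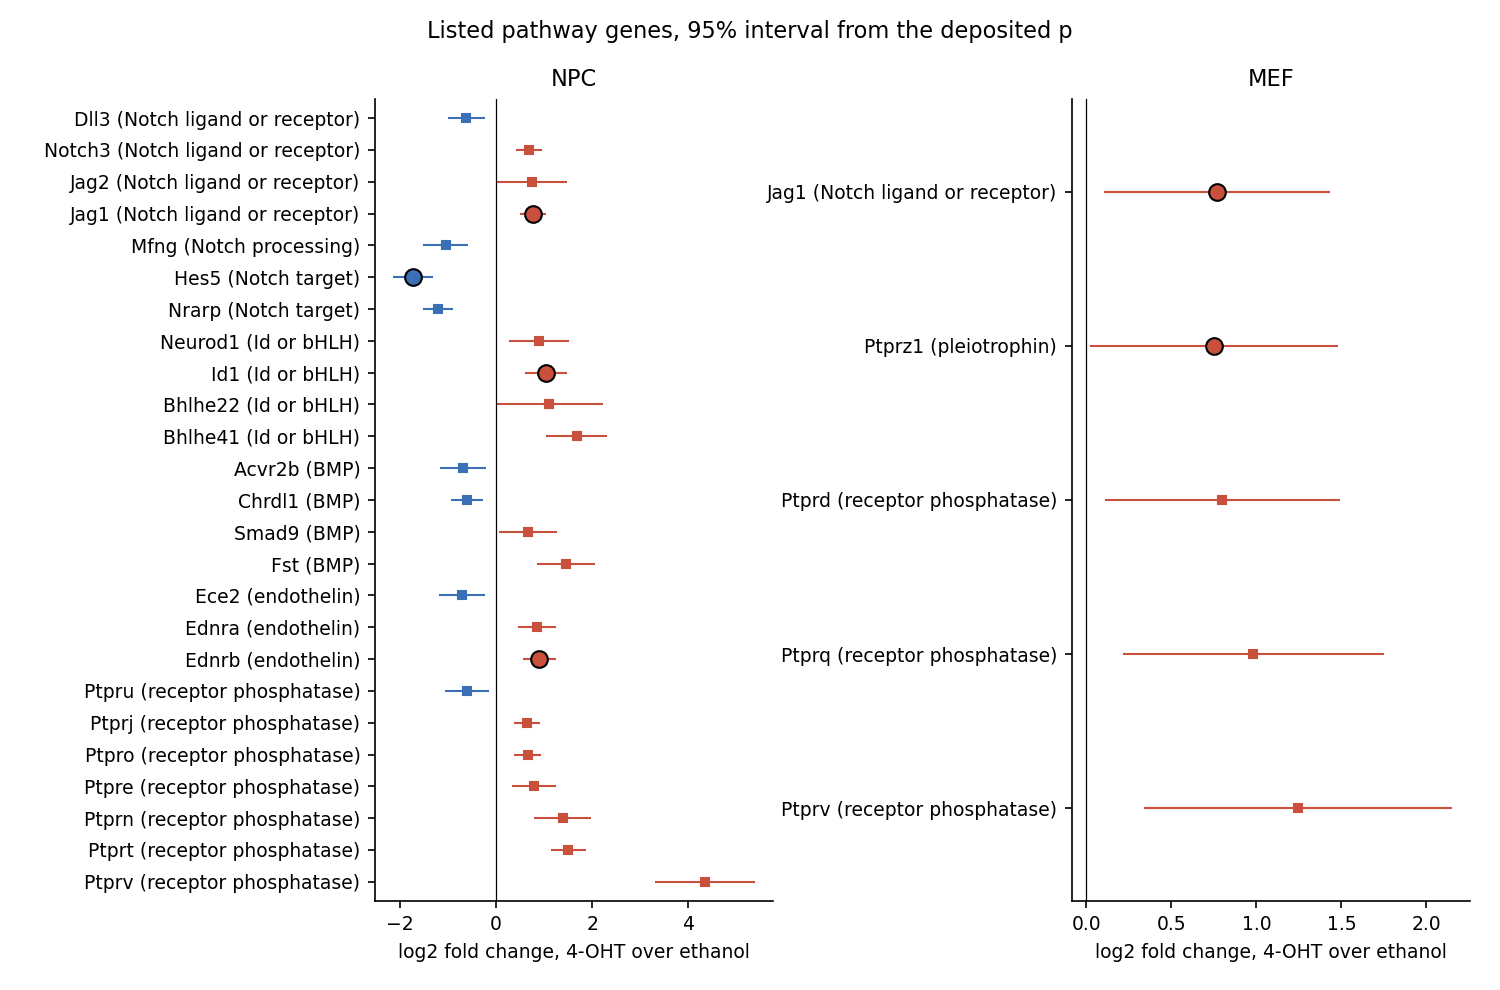
Log2 fold change of 4-OHT over ethanol for each listed gene of the pathway lists, NPC left and MEF right, with 95% intervals derived from the deposited p. Large circles are the 5 named genes, squares the other genes of each list, red higher and blue lower. In NPC Hes5 (-1.73) and Nrarp (-1.21) lie left of zero while Jag1 (0.77) and Notch3 (0.69) lie right of it. The x axes of the panels differ in scale, and the interval of Jag1 is wider in MEF (0.10 to 1.43) than in NPC (0.50 to 1.05).

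Id1 rose in NPC from 4.11 to 8.47 RPKM by the authors' deposited table, a 2.06-fold rise. Its log2 fold change was 1.04 (95% interval 0.61 to 1.48) with an adjusted p bound of 0.000150 (Cuffdiff). Id1 ranked 621 of 1367 higher rows by size and 135 of 461 among those that reached 5 RPKM in either arm, so rises of this size were common in the NPC list. Relative to the median of the listed NPC rows, which all changed at least 1.5-fold, its log2 fold change was 0.39. Its nearest genes in both RPKM values were Ttyh2, Fos and Ubtd1. The ratio of Hes5 to Id1, 2 genes whose products both act on bHLH factors, went from 3.85 with ethanol to 0.564 with 4-OHT on the RPKM scale. Id1 was therefore the lower of the pair with ethanol and the higher with 4-OHT.

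Of 19 Id genes, bHLH partners and proneural factors, 4 were listed in NPC, and all 4 were higher. Besides Id1 these were Bhlhe41, Neurod1 and Bhlhe22. Bhlhe41, a bHLH repressor of the clock system, rose from 0.485 to 1.56 RPKM by the authors' deposited table (log2 fold change 1.68, adjusted p bound 1.52e-05, Cuffdiff). Neurod1, a neuronal differentiation factor, had 0.349 and 0.651 RPKM and Bhlhe22 had 0.0425 and 0.0918 RPKM by the authors' deposited table, and neither bound passed. Id2, Id3, Id4 and Neurog2 are not listed in either table.

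The BMP pathway, which is known to drive Id1, had 4 of 37 genes listed in NPC, 2 higher and 2 lower. Fst, a secreted antagonist of activin and BMP ligands, rose from 0.345 to 0.946 RPKM by the authors' deposited table (log2 fold change 1.46, adjusted p bound 0.000160, Cuffdiff). Chrdl1, a secreted BMP antagonist, fell from 9.43 to 6.24 RPKM by the authors' deposited table (log2 fold change -0.60, adjusted p bound 0.0134, Cuffdiff). The type II receptor gene Acvr2b had 2.44 and 1.51 RPKM and Smad9 had 0.178 and 0.282 RPKM with ethanol and 4-OHT by the authors' deposited table, with bounds that did not pass. The median log2 fold change of the 4 was 0.04. No BMP or Id gene was listed in MEF.

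Ednrb was the most abundant of the 4 members in NPC. It rose from 86.0 to 161 RPKM by the authors' deposited table, an added 74.9 RPKM and a 1.87-fold rise. The log2 fold change was 0.90 (95% interval 0.56 to 1.25), with an adjusted p bound of 2.50e-05 (Cuffdiff). Relative to the median of the listed NPC rows, which all changed at least 1.5-fold, it was 0.25. Ednrb ranked 83 of 2416 listed rows by level with ethanol and 22 with 4-OHT. Its ratio to Hes5 on the RPKM scale went from 5.44 to 33.7, while its ratio to Jag1 was 13.2 and 14.4. The nearest genes in both RPKM values were Ldhb, Uqcrfs1 and Cpe.

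Of 7 genes of the endothelin system, 3 were listed in NPC. Ednra, the other endothelin receptor gene, rose from 1.38 to 2.51 RPKM by the authors' deposited table (log2 fold change 0.86, adjusted p bound 0.000770, Cuffdiff). Ece2, which encodes an endothelin-converting enzyme, had 10.2 RPKM with ethanol and 6.24 RPKM with 4-OHT by the authors' deposited table, and its bound of 0.116 did not pass (Cuffdiff). The ligand genes Edn1, Edn2 and Edn3 are not listed in either table.

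Ednrb, Id1 and Jag1 are also expressed by glia, and most of the listed glial markers were higher in NPC. Of 10 astrocyte markers 6 were listed and all 6 were higher. Of all protein-coding symbols 9.53% were listed, and 56.6% of listed rows were higher. The 6 markers summed to 128 RPKM with ethanol and 257 RPKM with 4-OHT, mostly Aldh1l1 and Sparcl1. Of these 6, 5 had an adjusted p bound under 0.05 (Cuffdiff). Gfap was low, at 0.221 and 1.10 RPKM by the authors' deposited table. Gjb6 had 0.0170 and 0.0821 RPKM by the authors' deposited table, and its bound did not pass. Sparcl1, a secreted astrocyte protein, went from 48.9 to 118 RPKM by the authors' deposited table. Of 11 oligodendrocyte lineage markers 4 were higher and 1 lower, summing to 10.6 and 23.8 RPKM, and of 20 neuron markers 5 were higher and 2 lower, summing to 7.89 and 13.5 RPKM. Tubb3, a neuronal tubulin gene, made up most of the neuron sum, and the other 6 listed neuron markers summed to 3.08 and 3.95 RPKM. An adjusted p bound under 0.05 was reached by 3 of the 7 neuron markers (Cuffdiff). None of these listed markers was at 0. Whether a change in cell makeup has a part in the changes of the members was not tested, and in such bulk RNA more cells of a type and more RNA per cell cannot be told apart.

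The progenitor list itself was mixed. Of 40 progenitor and radial glia genes 6 were listed in NPC, with Hes5 and Gli3 lower and Id1, Ednrb, Jag1 and Fgfr2 higher. Gli3, a transcription factor of Hedgehog signalling, fell from 3.38 to 2.16 RPKM and the receptor gene Fgfr2 rose from 2.37 to 3.87 RPKM by the authors' deposited table (adjusted p bounds 0.00140 and 0.00160, Cuffdiff). The 5 members are part of that list, and without them 1 gene was higher and 1 lower of 35. Nes, Sox2 and Pax6 are not listed, so their levels are unknown and the label NPC could not be checked on them. None of 12 fibroblast markers is listed in MEF, and that label could not be checked either.

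**Figure D3:**
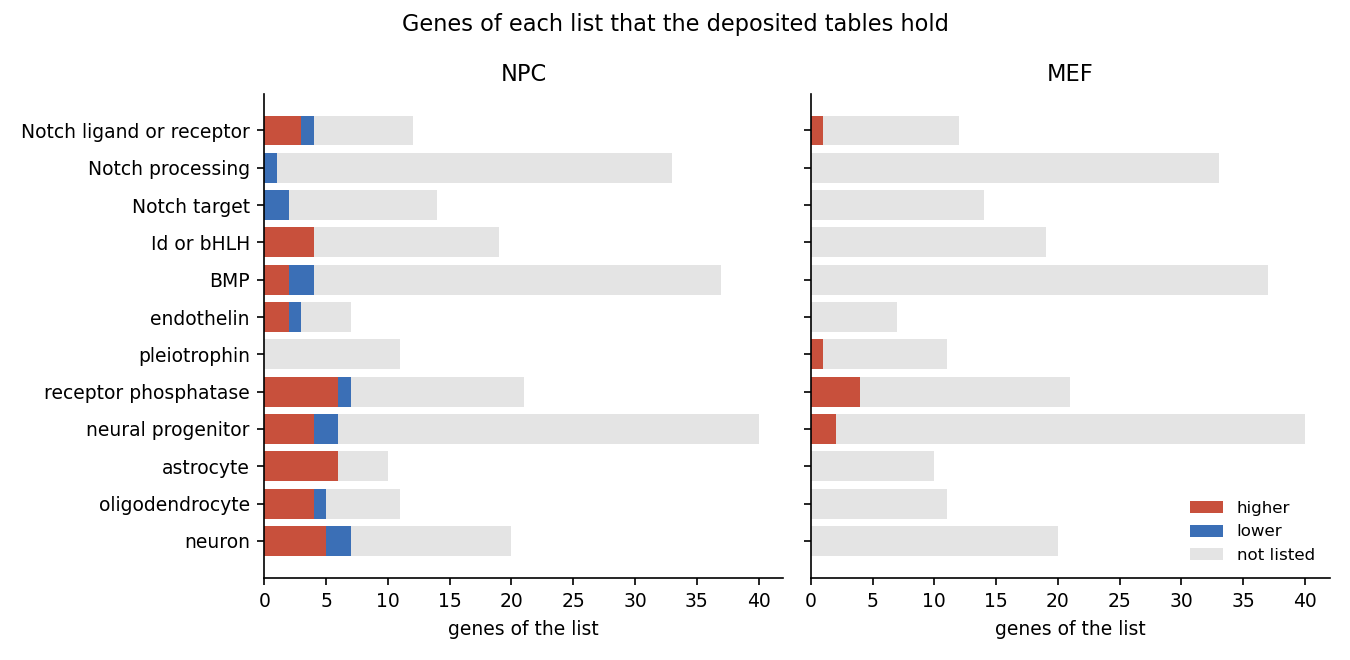
Number of genes of each list that the deposited tables hold as higher (red) or lower (blue), and that they do not list (grey), in NPC and MEF, for the 8 pathway lists and 4 of the marker lists. The x axis counts genes. Both listed Notch targets are lower and all 6 listed astrocyte markers higher in NPC, and in MEF the receptor phosphatases have the most listed genes, 4.

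Ptprz1 was listed in MEF and not in NPC. It had 1.69 RPKM with ethanol and 2.85 RPKM with 4-OHT by the authors' deposited table, 1.68-fold more. The log2 fold change was 0.75 (95% interval 0.02 to 1.48), and the Cuffdiff p of 0.0438 was the 92nd smallest of 111. Neither Ptprz1 nor Jag1 had a deposited p under 0.01 in MEF, as 13.5% of listed MEF genes did, or a bound under 0.05, as 0.901% did. By size the 2 genes ranked 48 and 46 of 56 higher MEF genes, so their changes lay near the smallest that the list holds. Nrk, Nell2 and 9930111J21Rik1 were nearest to Ptprz1 in both RPKM values. No other gene of the 11 in the pleiotrophin system, Ptn and Mdk among them, is listed in either cell type.

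Other receptor-type phosphatase genes were listed beside Ptprz1. In MEF 4 of 21 were listed, all higher, with none under an adjusted p bound of 0.05: the log2 fold change was 1.25 for Ptprv, 0.98 for Ptprq, 0.80 for Ptprd and 0.75 for Ptprz1 by the authors' deposited table. In NPC 7 were listed, 6 higher and 1 lower. Ptprv went from 0.138 to 2.82 RPKM, a log2 fold change of 4.35, and Ptprt from 1.796 to 5.10 RPKM, a log2 fold change of 1.51, by the authors' deposited table (adjusted p bound 1.15e-13 for both, Cuffdiff). Ptprn, Ptpre, Ptpro and Ptprj rose as well, by 1.39, 0.79, 0.66 and 0.64 on the log2 scale by the authors' deposited table. Ptpru had 0.810 and 0.534 RPKM with ethanol and 4-OHT by the authors' deposited table and did not pass. The median log2 fold change was 0.79 over the 7 genes in NPC and 0.89 over the 4 in MEF.

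**Figure D4:**
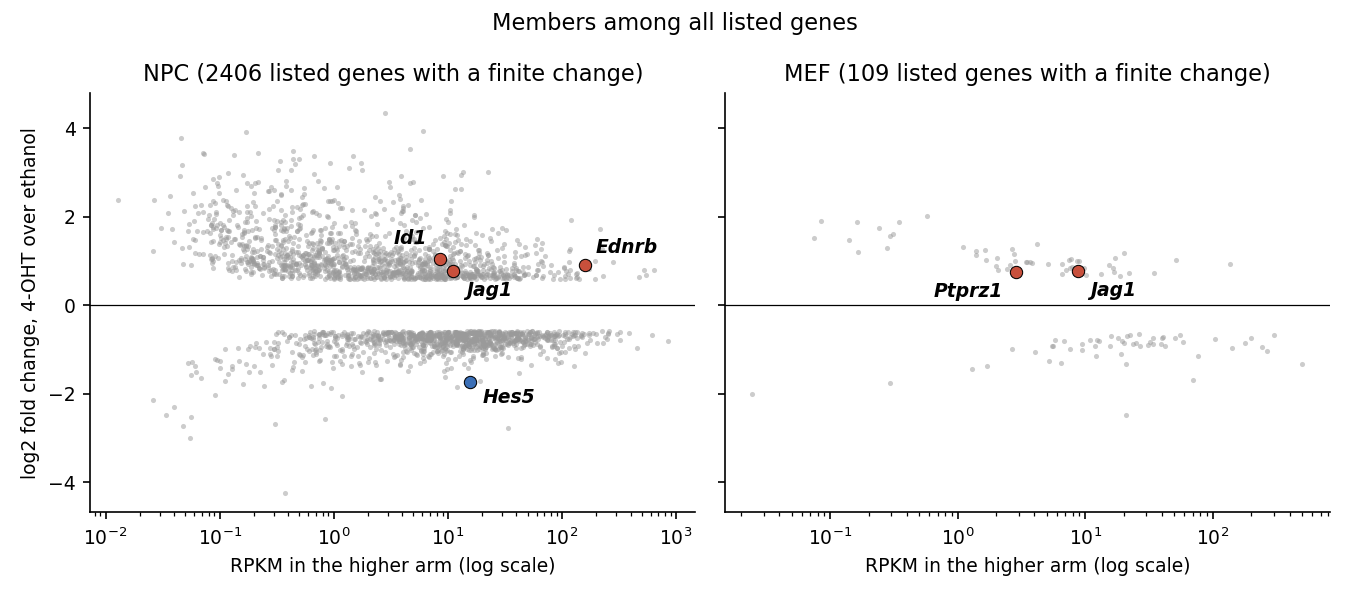
Log2 fold change of 4-OHT over ethanol against RPKM in the higher arm (log axis) for every listed gene with a finite change, NPC left and MEF right, 1 grey point a gene, with the named genes as large labelled points. Hes5 lies at the lower edge of genes of its level in NPC, Ednrb among the most abundant higher genes, and Jag1 and Ptprz1 near the inner edge of the higher genes.

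Splicing was also tabulated for these cells, as events listed for a difference in inclusion level between arms. None of the 5 members has an event among 255 events in NPC or 71 in MEF. Such events were listed for 0.927% of the 21900 RefSeq protein-coding symbols in NPC and 0.233% in MEF, so a count of 0 among 5 genes says little about them. Of the 268 genes of all lists, Fbxw7 and Ptprs have an event, both skipped exons in NPC. That is 0.746% of the list genes, near the share over all symbols. Fbxw7 encodes a ubiquitin ligase subunit that marks the cut Notch receptor for breakdown. Its 64-base exon lies at chr3:84668059-84668122 (mm9, plus strand) and matches, by its length and that of both neighbours, exon 3 of 14 of an annotated coding transcript, where it lies outside the coding sequence, and exon 3 of 13 of a noncoding transcript.

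Inclusion of the Fbxw7 exon was higher with 4-OHT in both listed pairs. In the first pair the level was 0.025 with ethanol, from 1 inclusion and 16 exclusion reads, and 1 with 4-OHT, from 11 and 0 reads. In the second pair it was 0.095 with ethanol, from 2 and 8 reads, and 0.511 with 4-OHT, from 15 and 6 reads. The deposited p-values within pairs were 2.24e-06 and 0.0204, and these compare the reads of 2 libraries. Read counts are low and the third pair is not listed, so its level is unknown.

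The Ptprs exon, of 59 bases at chr17:56568522-56568580 (mm9, minus strand), lies in the gene of another receptor-type phosphatase. Its inclusion level was lower with 4-OHT in both listed pairs, 0.509 beside 1 and 0.269 beside 0.706 with ethanol. In the first pair the inclusion and exclusion reads were 24 and 0 with ethanol and 14 and 6 with 4-OHT. In the second they were 27 and 5 with ethanol and 19 and 23 with 4-OHT. The third pair is not listed, and the listed pairs are not the same 2 as for Fbxw7. By its length and that of both neighbours the Ptprs exon matches exon 11 of 16 of a transcript with no annotated coding sequence. By its length and that of 1 neighbour it matches coding exon 3 of 6 of another. The smallest difference that the NPC table lists is 0.201, and pairs with smaller ones are not shown.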

How the data were processed

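Total RNA of 12 libraries was sequenced. Per the submitters' processing notes, base calls came from CASAVA 1.8, TopHat2 2.03 ran with Bowtie2 2.0.0.6 on build mm9, and Cuffdiff 2.02 was used. The authors deposited, per the file headers, 1 RPKM value per arm, the log2 fold change and the unadjusted p-value. For splicing the authors deposited the read count of each form and the inclusion level as a fraction, per the file headers, and the splicing p-value. The splicing tool is not given in the sources used here.

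Log2 values were recomputed from RPKM as a check. Standard errors were derived from the p-values, with values of 0 set to 2.22e-16, and the Benjamini-Hochberg bound counts all 55341 symbols of the annotation as tested across all genes. The derivations were tested on simulated data drawn without the p and fold limits of listing, so their behaviour under that selection was not tested. No Cuffdiff p-value was recomputed, and no list was tested as a set. Named genes were the 5 members, listed genes of 8 pathway lists (at most the 6 largest changes a list, so Ptpru, whose change was the smallest of 7 receptor phosphatases, was added after its values were seen), up to 8 progenitor genes, and the 3 nearest listed genes in log2 RPKM. A few genes that these rules or lists hold are not reported here. Lists of 17 kinds (268 genes) were used, the rest being markers of neurons, glia, fibroblasts, vessels, mural cells, immune cells and neural crest. The members and lists were chosen with earlier results of these data known. Python 3.11.15, pandas 2.3.3, numpy 2.4.6, scipy 1.17.1 and matplotlib 3.10.9 were used. Alternatives were pseudocounts of 0.1 and 1 RPKM, centring on the listed median (for the difference between cell types added after seeing the data), stricter p-values, minimum levels and fold changes, doubled MEF standard errors and leaving out Prmt5 or 1 splicing pair.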

Additional observations from a re-analysis of the deposited data

Results flagged for a closer look

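The change of Ptprv, a receptor-type phosphatase gene in the family of Ptprz1, differed between the cell types in the main test. Its log2 fold change was 4.35 in NPC and 1.25 in MEF, a difference of 3.11 (95% interval 1.73 to 4.48), with an adjusted p of 0.000161 over 49 genes (two-sided normal test, standard errors from the deposited Cuffdiff p-values). With the MEF standard errors doubled the adjusted p was 0.112. With each table centred on its listed median the difference was 1.796, with an adjusted p of 0.0148 by the same test. Both arms in NPC were low, at 0.138 and 2.82 RPKM, and those in MEF were 0.694 and 1.65 RPKM.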

How the results depend on the processing

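The 4 members listed in NPC also passed a deposited p under 0.01 and the adjusted p bound, while of the 2 in MEF 0 passed a deposited p under 0.01 and 0 passed the bound. All 18 log2 values of members under pseudocounts and centring kept their sign. A pseudocount added to both arms cannot change a sign, and centring could do so only for Id1, Ednrb and Jag1 in NPC. Centring on the median of listed rows, 0.66 in NPC and -0.65 in MEF, left Jag1 at 0.11, Ednrb at 0.25, Id1 at 0.39 and Hes5 at -2.39 in NPC, and Jag1 at 1.42 and Ptprz1 at 1.40 in MEF. A pseudocount of 1 RPKM gave Ptprz1 0.52. Where changes under 1 on the log2 scale were dropped, 0 higher and 3 lower Notch genes were left in NPC, and at 5 RPKM or more 2 and 2. The same centring, added after seeing the data, turned the difference of Jag1 between cell types from 0.0049 to -1.31 (adjusted p 0.000924, normal test, Cuffdiff), since it shifts all genes of a table alike. The shift comes from the listed medians, so the centred difference cannot decide whether the change of Jag1 differed. The uncentred difference cannot decide it either, since Jag1 lay near the smallest listed change in both tables. Doubled MEF standard errors and leaving out Prmt5 cannot move the uncentred difference, and gave adjusted p from 0.989 to 0.994. For splicing, differences within pairs (replicate block) averaged 0.696 for Fbxw7, from 0.416 to 0.975 without 1 pair, and -0.464 for Ptprs, from -0.491 to -0.437. No paired analysis was possible for expression because each arm has 1 deposited value, and for the same reason no library could be left out. Depth is unknown, and a gene that is not listed cannot be called unchanged.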

Other observations

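Genes of the neural crest and melanocyte lineage, in which Ednrb acts during development, were listed in NPC as well. Of 10 such genes 4 were listed, all higher, Mitf, Sox10 and Tyr among them. Mitf, a melanocyte transcription factor gene, went from 0.822 to 1.43 RPKM by the authors' deposited table. Sox10 went from 2.22 to 3.68 RPKM and the pigment enzyme gene Tyr from 0.0466 to 0.117 RPKM by the authors' deposited table. The bound of the adjusted p passed 0.05 for 3 of the 4. Sox10 is also an oligodendrocyte gene and stands in both lists.

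Some markers of vessels, mural cells, immune cells and fibroblasts were listed in NPC, where 9.53% of all protein-coding symbols were. The 2 listed endothelial genes of 10 summed to 0.146 RPKM with ethanol and 0.258 RPKM with 4-OHT, and the 2 immune genes of 10 to 0.894 and 2.0296 RPKM. Postn was the single fibroblast gene of 12, and Notch3 the single mural gene of 10. Of these NPC genes, Notch3 and 1 of the 2 immune genes had an adjusted p bound under 0.05 (Cuffdiff). The endothelial genes and Postn did not. In MEF the listed mural genes were Myh11 and Rgs5, which summed to 12.01 and 24.9 RPKM. Neither had an adjusted p bound under 0.05 (Cuffdiff).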
